A study of Mus musculus with 57 samples.

Results

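The long noncoding RNA (lncRNA) genes of the mouse Hox clusters were followed across embryonic tissues of wild-type and Hoxa5-/- mutants. They were chosen by gene name: Halr1, Hotairm1, Hoxaas2, Hoxaas3 and Hottip of the HoxA cluster, Hoxb3os and Hoxb5os of HoxB, Hotair of HoxC and Haglr of HoxD. All 9 names were present among the 56860 genes of the deposited tables, and the 39 protein-coding Hox genes served as the list they were set beside. RNA-seq of polyadenylated RNA was available for 57 libraries in 7 contexts, each context being a tissue at 1 stage of gestation (E, embryonic day): trachea at E15.5, lung at E12.5, lung at E15.5, diaphragm at E15.5, somites at E10.5, somites at E12.5 and, at E18.5, the brown fat between the shoulder blades (interscapular brown adipose tissue, iBAT). Each context held wild-type embryos (wt) and embryos homozygous for a null Hoxa5 allele (Hoxa5-/-), all on the 129/Sv background, with 4 libraries per genotype except for somites at E10.5 (4 wt and 3 Hoxa5-/-) and iBAT (5 and 5). The null allele carries a neomycin cassette in the homeobox of Hoxa5 and is present in every cell of the embryo, and the somite samples were segments of the axis around the cervical to thoracic transition, freed of neural tube, forelimbs and thoracic organs. Trachea, lung and diaphragm were sequenced with single-end reads at one centre and somites and iBAT with paired-end reads at another, so differences between these 2 sets of contexts cannot be told apart from the sequencing. The study names the libraries biological replicates and describes as many wt embryos per context as there are wt libraries, and p-values measure the spread between these libraries.

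Hox genes encode homeodomain transcription factors that give cells their position along the body axis, and within each cluster the order of the genes matches the order of their expression in time and space. The lncRNAs of the clusters lie between and across these genes, mostly on the opposite strand, and several start close to the start of a Hox gene. Hotairm1 of the 3′ part of HoxA is known from retinoic acid-induced and myeloid differentiation. Halr1 lies outside the HoxA cluster. Hottip, at the 5′ end of HoxA, is known for maintaining 5′ HoxA genes in distal tissues, and Hotair of HoxC is known for its reported interaction with Polycomb complexes. Haglr is transcribed away from Hoxd1.

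Positions are those of the deposited annotation (GRCm39), in which all 9 are annotated as lncRNA. Halr1 lies at chr6:52079903-52091977 (+), outside the row of HoxA genes. Hotairm1 lies at chr6:52133882-52139099 (+). Hoxaas2 lies at chr6:52142654-52146544 (+), its last 503 bases overlapping the 3′ end of Hoxa3 on the opposite strand, with its 5′ end 843 bases from that of Hoxa2. Hoxaas3 spans chr6:52152197-52192056 (+), crossing Hoxa4, Hoxa5, Hoxa6 and Hoxa7, so its intron holds the Hoxa5 gene that carries the cassette in the mutants. Hottip lies at chr6:52239760-52244588 (+), 1971 bases from Hoxa13. On the other clusters, Hoxb5os (chr11:96181849-96197736, −) overlaps Hoxb5 and Hoxb6, Hoxb3os (chr11:96233803-96245517, −) overlaps Hoxb2 and Hoxb3, Hotair (chr15:102852494-102856165, −) lies 5449 bases from Hoxc12, and Haglr (chr2:74578766-74593240, −) overlaps the record of Hoxd3 while its 5′ end is 84 bases from that of Hoxd1. As neighbour of each lncRNA the Hox gene with the smallest gap was taken, with ties settled by the nearer 5′ end: Hoxa3 for Hoxaas2, Hoxa4 for Hoxaas3, Hoxb2 for Hoxb3os, Hoxb5 for Hoxb5os and Hoxd3 for Haglr. Because Hoxaas2 starts beside Hoxa2 and Haglr beside Hoxd1, those genes are given too.

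The following sequences come from the GRCm39 genome and are printed 5′ to 3′ on the strand of the lncRNA. The interval of 83 bases between the 5′ ends of Haglr and Hoxd1 (chr2:74593241-74593323, −) is shown because it is all that separates the starts of these divergent genes, and the 250 bases before Hoxaas2 (chr6:52142404-52142653, +) because Hoxaas2 was the lncRNA that passed the test between genotypes. In both, CpG dinucleotides are in capitals.
Haglr to Hoxd1 interval: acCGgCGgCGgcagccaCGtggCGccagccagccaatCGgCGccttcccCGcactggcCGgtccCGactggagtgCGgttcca
Hoxaas2 upstream: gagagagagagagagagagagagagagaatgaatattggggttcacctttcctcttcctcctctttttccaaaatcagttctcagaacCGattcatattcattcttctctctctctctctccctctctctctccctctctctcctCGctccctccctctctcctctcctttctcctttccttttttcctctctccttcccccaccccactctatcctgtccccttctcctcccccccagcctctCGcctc
The interval beside Haglr held 11 CpG in 83 bases and was 74.7% G or C, and the stretch before Hoxaas2 held 3 CpG and was 51.6% G or C. In a later GENCODE release some Haglr transcripts start further out, so its 5′ end is that of the deposited annotation. In windows of 300 bases around each 5′ end (250 before and 50 after), the homeodomain core TAATTA was found in 0 of 9 members on either strand, against 7.5% of the windows of all 56914 annotated starts, and the MEIS motif TGACAG in 1, Hoxb3os, against 19.6%. AGGTCA and TATAAA were in 0 of 9, against 15.7% and 17% of all windows. Palindromic TAATTA reads alike on both strands, and matches or their absence describe these letters only.

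The tables were counted without strand: of 310 genes whose exons were wholly covered by exons of an opposite-strand gene with at least 1000 counts, 310 had 0 counts, so reads in shared exons were dropped. Of the exon bases of the members, 67.6% were shared with other genes for Hoxb3os, 43.1% for Hotairm1, 30.4% for Hoxaas3, 25.3% for Hottip, 14.97% for Hoxaas2, 12.55% for Hoxb5os, 8.61% for Haglr, 8.31% for Hotair and 0% for Halr1. The levels of the first 3 are thus understated on a scale per length, and reads from unannotated opposite-strand transcription cannot be told apart from theirs.

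Library totals ran from 18369905 to 72991481 counts, with a median of 31631463 in trachea, lung and diaphragm and of 25342035 in somites and iBAT. Each library correlated with the mean of the rest of its group at 0.973 to 0.994. The paper lists lower shares of mapped and of assigned reads for Hoxa5-/- replicate 4 of lung at E15.5 than for the other lungs of that stage. Each tissue expressed all markers of its own list at a mean of at least 1 TPM (transcripts relative to the library total, a level per length) in wt: 6 of 6 for lung, 6 of 6 for trachea, 7 of 7 for muscle in diaphragm, 8 of 8 for somites and 7 of 7 for brown adipocytes in iBAT. Some lists were also met in full elsewhere, so this does not tell the tissues apart. The lung list was met in trachea and diaphragm, the trachea list in diaphragm and somites at E12.5, and the muscle list at both somite stages. Hoxa5, the targeted gene, was lower in Hoxa5-/- libraries in 7 of 7 contexts, by a log2 fold change of −0.92 in somites at E10.5 to −1.94 in iBAT (edgeR, called in each). Its remaining reads include those of the disrupted gene.

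In wt embryos, 7 of the 9 lncRNAs reached a mean of 1 TPM in at least 1 context, and 41 of the 63 pairs of lncRNA and context did so. Hottip and Hotair, the members nearest to Hoxa13 and Hoxc12, did not: Hottip had 4 counts over all 57 libraries, 1 in each of 4, and Hotair 2 counts, both in 1 wt library of somites at E10.5 (0.125 TPM). A library with 0 counts allowed a level of up to 0.0544 to 0.194 TPM for Hottip and 0.0780 to 0.278 TPM for Hotair, taking 3 counts as the floor (counting error only).

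The 3′ HoxA lncRNAs were found in every context, with different tissues at the top. Hotairm1 was highest in lung at E12.5 (38.0 ± 5.55 TPM, SD, n = 4) and somites at E10.5 (37.2 ± 5.28), whose ranges overlapped, followed by iBAT (19.3 ± 1.79, n = 5), trachea (15.02 ± 2.16), somites at E12.5 (13.6 ± 1.43), lung at E15.5 (10.03 ± 0.913) and diaphragm (8.06 ± 1.89). In this order iBAT overlapped trachea, trachea overlapped somites at E12.5, and lung at E15.5 overlapped diaphragm. TPM is scaled within each library, so an order across contexts rests on TPM being comparable between them. CPM with TMM factors was taken within each context, so these factors do not scale between contexts either. On that scale somites at E10.5 in place of lung at E12.5 were the highest context of Hotairm1. The highest context of each other member stayed the same. Hoxaas2 had its maximum in somites, at 34.1 ± 4.31 TPM at E10.5 and 25.9 ± 3.36 at E12.5 with overlapping ranges, then lung at E12.5 (20.3 ± 1.504) and trachea (19.1 ± 3.97), which overlapped, then diaphragm (8.84 ± 1.16) and lung at E15.5 (8.38 ± 0.560), which also overlapped, and was lowest in iBAT (1.31 ± 0.296). The 2 neighbouring lncRNAs thus differed in fat: iBAT was the lowest context of Hoxaas2 (1.31 TPM) but not of Hotairm1 (19.3 TPM). Hoxaas3 was highest in somites at E10.5 (24.4 ± 3.51), and its other contexts ran from 9.41 ± 1.27 in lung at E12.5 to 3.60 ± 0.128 in diaphragm, each overlapping the next apart from diaphragm. Halr1, beyond the end of the cluster, was low throughout, from 3.49 ± 0.547 TPM in somites at E10.5 and 2.09 ± 0.245 in somites at E12.5, through trachea (1.49 ± 0.445), diaphragm (0.914 ± 0.314), iBAT (0.778 ± 0.187) and lung at E12.5 (0.462 ± 0.156), to 0.199 ± 0.0905 in lung at E15.5, and from trachea on each context overlapped the next.

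On the other clusters, Hoxb5os had the highest level of all members. It stood at 238 ± 19.2 TPM in somites at E10.5, with libraries at 221, 229, 265 and 238, and next at 32.3 ± 5.82 in lung at E12.5, 21.2 ± 2.48 in lung at E15.5 and 15.9 ± 4.32 in somites at E12.5, which overlapped lung at E15.5. Trachea (2.99 ± 0.770), diaphragm (2.93 ± 1.25) and iBAT (2.22 ± 0.681) overlapped at the bottom. Hoxb3os followed a flatter course, from 11.3 ± 1.03 TPM in somites at E10.5 and 7.11 ± 0.528 in lung at E12.5 to 1.61 ± 0.287 in iBAT, with trachea (3.24 ± 0.778), somites at E12.5 (3.11 ± 0.195) and lung at E15.5 (2.96 ± 0.423) overlapping in between. Haglr was highest in somites: 38.5 ± 1.56 TPM at E10.5 and 10.3 ± 0.945 at E12.5, against 1.34 ± 0.661 in trachea, 0.832 ± 0.636 in lung at E12.5 and 0.743 ± 0.239 in diaphragm. In lung at E15.5 its 4 wt libraries held 7 counts in all and in iBAT the 5 wt libraries held 9.

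**Figure D1:**
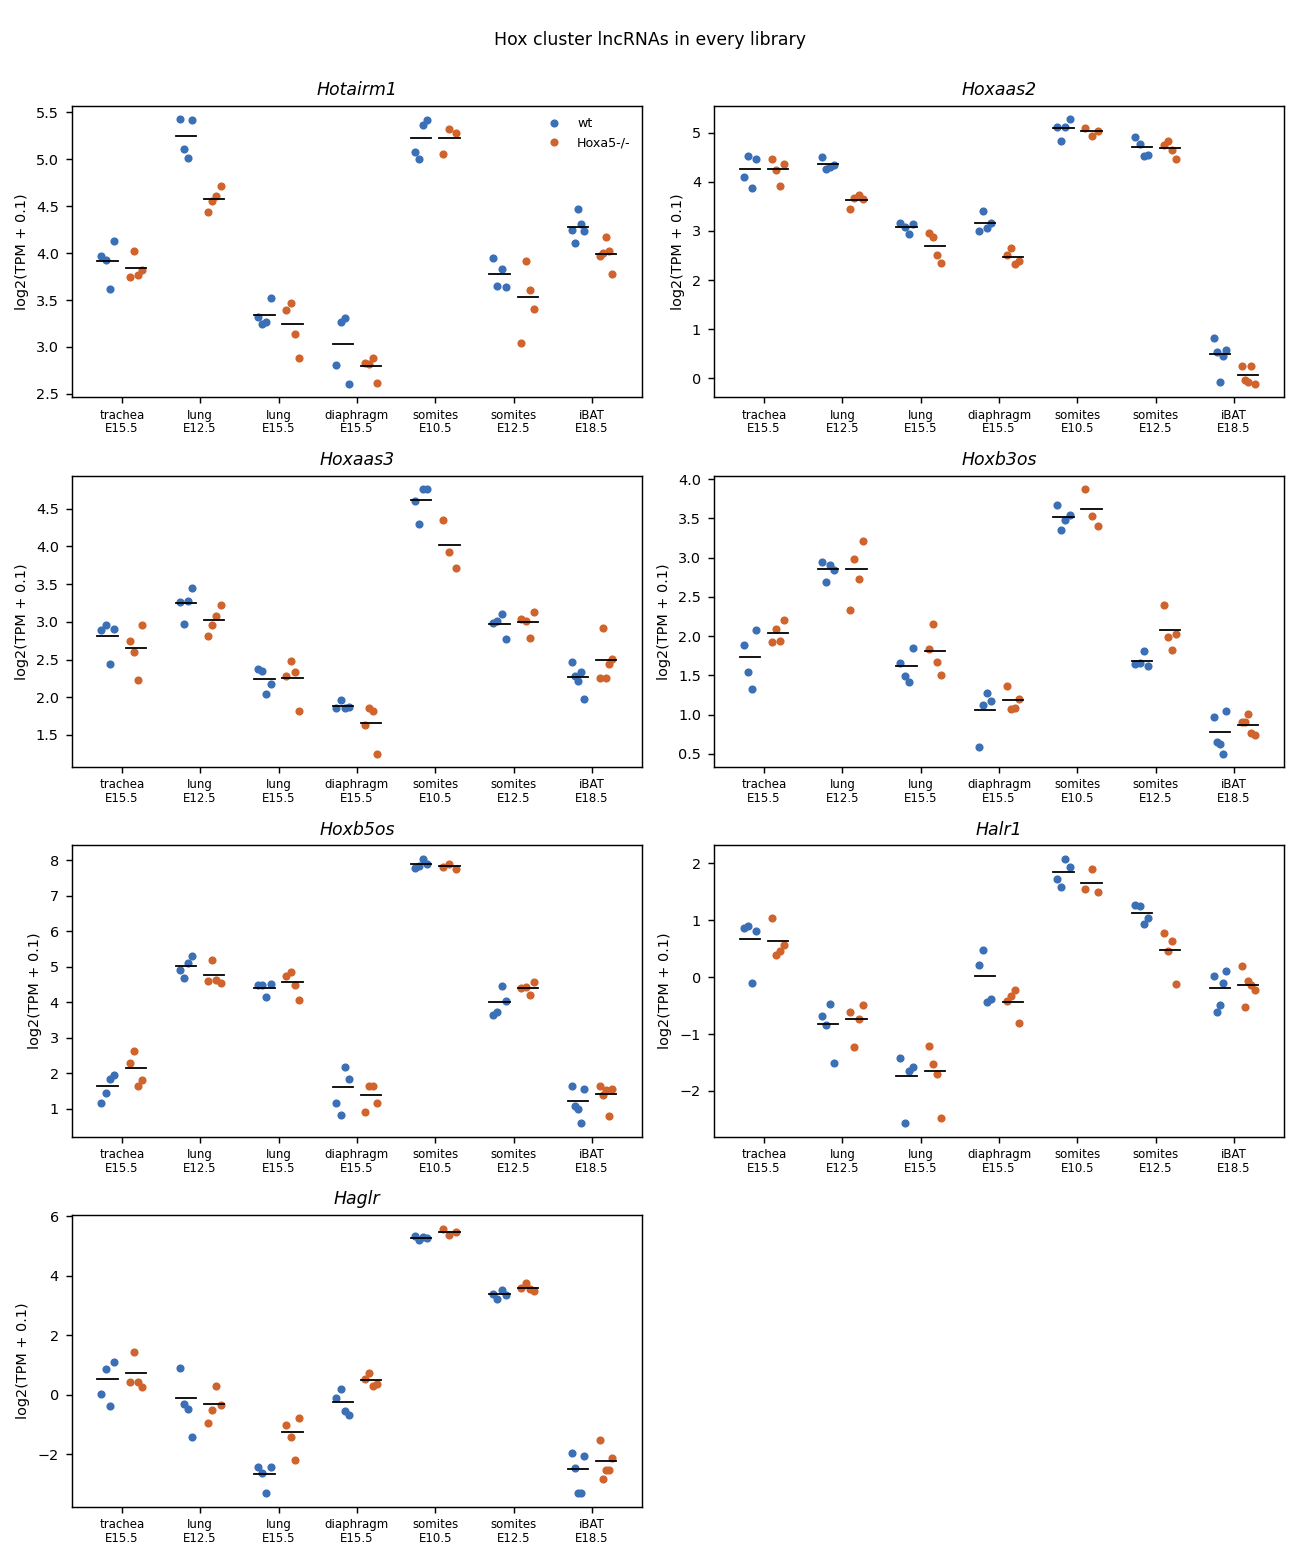
The panels plot log2(TPM + 0.1) of each of the 7 lncRNAs that reached 1 TPM, 1 point per library (blue wt, orange Hoxa5-/-), in the 7 contexts along the horizontal axis, with a black bar at the mean of each group. Hoxb5os and Haglr stand highest in somites at E10.5 (wt means 238 and 38.5 TPM), Hoxaas2 is lowest in iBAT (1.31 TPM), and the genotypes lie close together in most contexts.

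Each member was compared between wt contexts within 1 table (edgeR quasi-likelihood test, Benjamini-Hochberg adjustment over all genes with a mean of at least 1 TPM in either group, called at an adjusted p under 0.05 and a fold of at least 1.5). From E12.5 to E15.5 in lung, 5 of 5 members tested were called lower, against 9.15% of the 18158 genes tested (24.6% in either direction), with a median log2 fold change of −1.30 against −0.01 over all genes. Hotairm1 fell by 1.96 ± 0.14 on the log2 scale (SE, adjusted p = 2.86e-06, edgeR), Hoxaas2 by 1.31 ± 0.09, Hoxb3os by 1.30 ± 0.12, Hoxaas3 by 1.05 ± 0.13 and Hoxb5os by 0.63 ± 0.15. The last was close to the fold minimum and was no longer called without wt replicate 4 of E12.5 (−0.54) or wt replicate 3 of E15.5 (−0.55). The protein-coding Hox genes moved alike, with 16 of 18 lower and a median of −1.22, and the neighbours reported here changed by −1.72 (Hoxa4), −1.21 (Hoxb5), −0.85 (Hoxb2) and −0.77 (Hoxa3). In bulk tissue, fewer cells with a transcript and less of it per cell cannot be told apart.

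Somites showed the same direction between E10.5 and E12.5. Of 7 members tested 6 were called lower, against 18.4% of 19773 genes (42.6% in either direction), with a median of −1.72 against −0.04 over all genes, while 19 of 30 Hox genes were lower and 5 higher. Hoxb5os went from 221 to 265 TPM in the wt libraries of E10.5 to 12.46, 12.99, 21.8 and 16.4 TPM at E12.5, a log2 fold change of −3.97 ± 0.15 (adjusted p = 1.24e-10, edgeR), while Hoxb5, which it overlaps, changed by −1.80. Haglr changed by −1.97 ± 0.10, near Hoxd3 at −2.11 and unlike Hoxd1, the gene at whose start it begins, at −0.42 (not called). Hoxb3os (−1.94), Hoxaas3 (−1.72), Hotairm1 (−1.52) and Halr1 (−0.80) were also lower. Hoxaas2 moved least, by −0.46 ± 0.11, which was under the fold minimum, beside 0.00 for Hoxa2 (not called). Summed markers of neural tube and neurons moved with these changes, from 745 to 1183 TPM in the wt libraries of E10.5, with 7 of 7 markers at a mean of 1 TPM or more, to 140 to 372 TPM at E12.5 with 3 of 7. Their part in the result was not tested.

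Among the tissues of E15.5, trachea had more Hoxaas2 than lung (log2 fold change 1.15 ± 0.16, adjusted p = 0.000338, edgeR) and less Hoxb5os (−2.85 ± 0.22). Halr1 was 2.86 ± 0.40 higher in trachea on that scale and Haglr 4.34 ± 0.59, although the lung value of Haglr rests on 7 counts and its fold change is accordingly loose. Both of these passed the filter only through trachea, where they were high. Of the 5 members at 1 TPM or more in both tissues 1 was higher and 1 lower, while 20.1% of all genes tested were higher and 10.1% lower (30.2% in either direction). Hotairm1 (0.55) and Hoxaas3 (0.54) did not reach the fold minimum. Diaphragm against lung gave 1 call in 5, Hoxb5os at −2.53 ± 0.27 (36.4% of genes called), and diaphragm against trachea 3 in 7, all lower (18.4% of genes lower, 32.5% in either direction): Hoxaas2 at −0.81 ± 0.16, Hoxaas3 at −0.64 ± 0.16 and Hotairm1 at −0.61 ± 0.20 (adjusted p = 0.0289, 0.0190 to 0.0750 when 1 library was left out). Without wt replicate 3 of diaphragm Hoxaas3 was at −0.56, under the fold minimum, and was not called. Values with TMM factors lay 0.30 and 0.29 above the log2 ratios of TPM in these 2 comparisons with diaphragm, so the 3 falls against trachea were larger in TPM, at 2.16-, 1.92- and 1.86-fold. The HoxB genes that Hoxb5os overlaps were lower outside lung too: Hoxb5 changed by −3.19 and Hoxb6 by −4.15 in trachea against lung.

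Between iBAT at E18.5 and somites at E12.5, contexts that differ in tissue and stage, scaling mattered. The TMM-based values lay 1.21 above the log2 ratios of TPM, and 66.3% of all genes were called. Hotairm1 was higher in iBAT on both scales, 1.42-fold in TPM and 1.72 ± 0.14 on the log2 scale with TMM. Hoxaas2 (−3.10 ± 0.15 with TMM, 19.8-fold lower in TPM), Hoxb5os (−1.63 ± 0.25 and 7.17-fold) and Haglr (−5.80 ± 0.35, on 9 counts in iBAT, having passed the filter through somites only) were lower on both. Hoxaas3 (4.71 TPM in iBAT and 7.77 in somites, 0.49 with TMM) and Hoxb3os (1.61 and 3.11 TPM, 0.25 with TMM) changed direction between the scales and were not called.

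**Figure D2:**
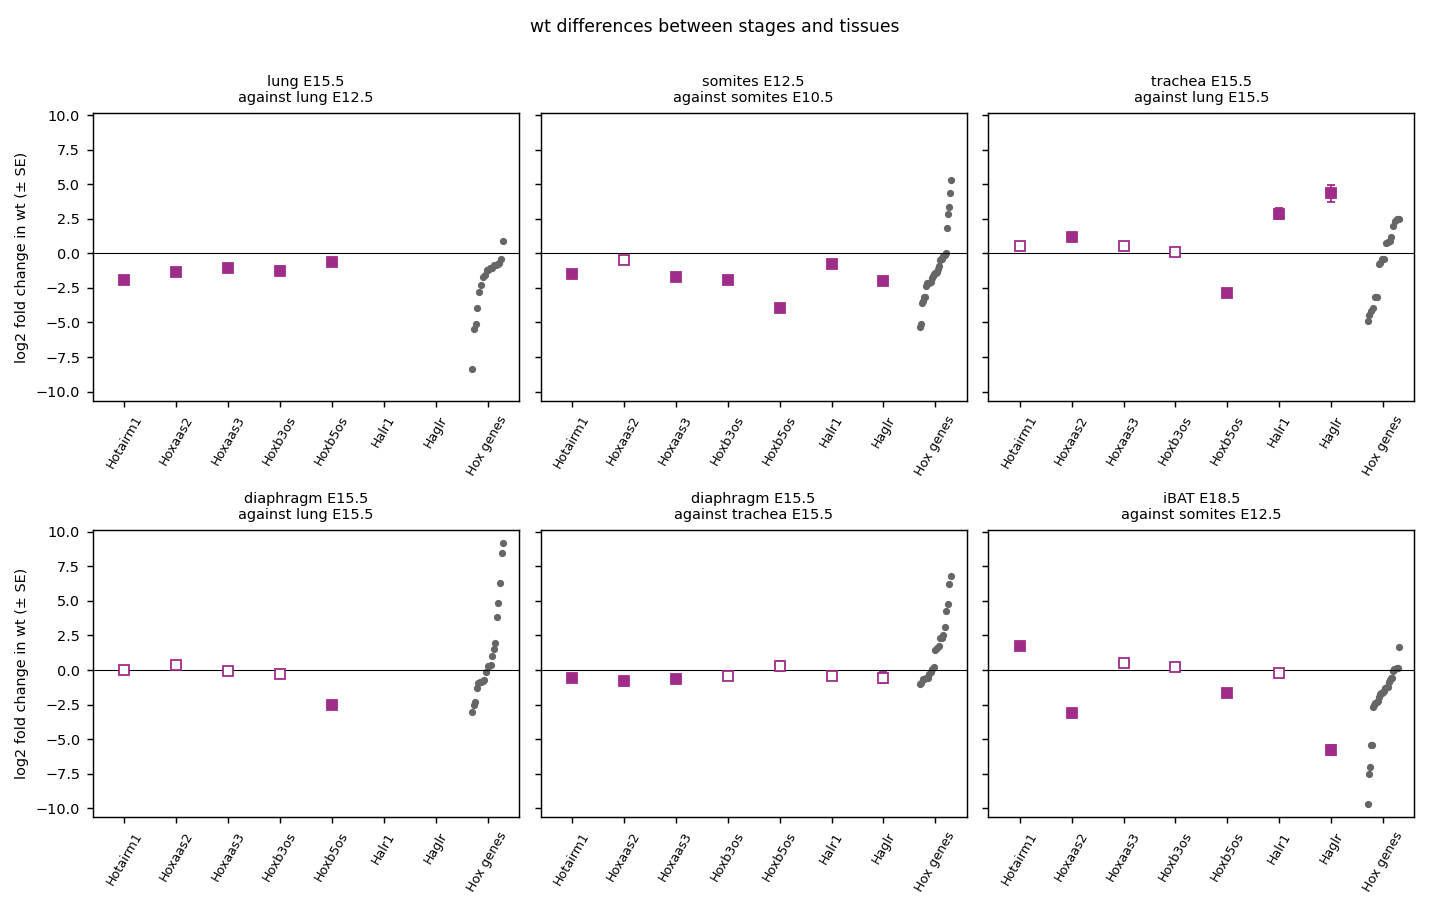
Each panel plots, for 1 comparison of wt contexts, the log2 fold change (edgeR, TMM factors) of each lncRNA tested with its standard error, filled where called, and grey points for the protein-coding Hox genes. The 5 lncRNAs tested were called lower between the lung stages and 6 of 7 between the somite stages, with Hoxb5os at −3.97 as the extreme of the latter.

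Loss of Hoxa5 was compared with wt in each context by the same test. Of 42 pairs of lncRNA and context tested 2 were called, both of them Hoxaas2: it fell in lung at E12.5 and in diaphragm at E15.5. Members called were 1 of 5 in lung at E12.5 (0.0798% of all genes), 1 of 6 in diaphragm (0.594%), and 0 of 7 in trachea (0.0156%), 0 of 5 in lung at E15.5 (0.124%), 0 of 7 in somites at E10.5 (0.0215%), 0 of 7 in somites at E12.5 (0.00529%) and 0 of 5 in iBAT (0.00657%). In the contexts with no call, the members with an unadjusted p under 0.05 were 0, 1, 1, 4 and 0 in that order, against 6.7%, 6.32%, 12.7%, 3.24% and 2.47% of all genes, and DESeq2 called 0, 0, 1, 0 and 0. Hotairm1 and Hoxaas2 had negative fold changes with TMM factors in 7 of 7 contexts each, most of which did not pass the test. Their mean TPM was lower in mutants in 6 of 7, and in 2 contexts each the sign of the fold change turned under other settings or without 1 library. In iBAT Hoxaas2 passed the filter only through wt, where it was higher (means of 1.31 and 0.945 TPM). Beside Hoxa5 itself, 1 of 20 protein-coding Hox genes tested was called lower in lung at E12.5, and 1 of 21 was called in diaphragm, Hoxd8 (0.94, higher).

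Hoxaas2 in lung at E12.5 stood at 22.4, 19, 19.6 and 20.3 TPM in wt and at 10.8, 12.7, 13.2 and 12.4 TPM in Hoxa5-/- libraries. The groups did not overlap, as for 2 of the 5 members and 4.09% of all genes. The log2 fold change was −0.72 ± 0.08 (SE), a fall of 39.3% (adjusted p = 0.00911, edgeR; 8.31e-11 to 0.153 over 15 alternatives, of which 12 kept the call). The call was lost without Hoxa5-/- replicate 2 (adjusted p = 0.0636) or 4 (0.0510), with values of −0.72 and −0.71. Erythroid markers summed to 13149 to 25229 TPM in wt and 13532 to 103245 TPM in Hoxa5-/- lungs, the highest being replicate 1, and without that library Hoxaas2 was at −0.71 with an adjusted p of 0.0151. Hoxa2, whose 5′ end faces that of Hoxaas2, was at −0.14 (adjusted p = 0.66), and Hoxa3 at −0.54 (0.10). The paper, using DESeq2, reported Hoxa3 as significantly lower in this context.

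In diaphragm, Hoxaas2 was measured at 7.85, 10.47, 8.19 and 8.85 TPM in wt and 5.63, 6.19, 4.94 and 5.11 TPM in mutants. The groups did not overlap, in either direction, for 3 of 6 members and 6.87% of all genes in this comparison. These members include Haglr, which was higher in mutants and passed the filter only through them. For Hoxaas2, again no mutant library reached the lowest wt library. The log2 fold change was −0.70 ± 0.11, a fall of 38.5% (adjusted p = 0.0381, edgeR; 1.48e-05 to 0.124 over 15 alternatives, of which 8 kept the call). Leaving out 1 library kept the adjusted p under 0.05 only for wt replicate 3 (−0.74, 0.0361), and the other 7 gave 0.0641 to 0.124. That library held 568.5 TPM of summed lung epithelium markers, against 84.5 to 115 in the other wt and 90.7 to 125 in the mutant diaphragms. Markers of neural tube and neurons also differed, at 9.57 to 36.6 TPM in wt and 1.43 to 2.52 TPM in mutants, with Tubb3 and Nkx6-1, the 2 of 7 tested, both lower, and Sox1 was at 0 in all 8 libraries. Posterior trunk markers summed to 5.87 to 45.3 TPM in wt and 4.55 to 6.04 TPM in mutants. That list is not particular to posterior trunk, as it summed to 299 to 322 TPM in wt lung at E15.5. Hepatocyte markers were far higher and varied widely in both genotypes, at 1411 to 8030 TPM in wt and 324 to 9929 TPM in mutants. The part of the cells behind these marker sums in the fall of Hoxaas2 was not tested.

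Elsewhere Hoxaas2 was not called between genotypes: −0.42 ± 0.20 in iBAT, −0.31 ± 0.12 in lung at E15.5, −0.12 ± 0.11 in somites at E10.5 and −0.01 in both trachea and somites at E12.5. The iBAT value is of a gene that passed the filter there only through wt. In lung at E15.5 the wt libraries held 8.86, 8.36, 7.603 and 8.70 TPM and the mutant libraries 7.64, 7.21, 5.58 and 4.96, so that 1 mutant library lay within the wt range. The lowest value is that of Hoxa5-/- replicate 4, the library with the lower shares of mapped and assigned reads. The difference between the effects at the 2 lung stages was 0.41 ± 0.14 (adjusted p = 0.925, edgeR), and that between diaphragm and trachea −0.68 ± 0.21 (adjusted p = 0.247). Neither passed, so the effect of genotype on Hoxaas2 was not shown to differ between contexts.

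Hotairm1 was the other member whose groups stood apart in lung at E12.5, with 42.9, 34.3, 32.1 and 42.5 TPM in wt and 21.5, 23.5, 24.2 and 26.1 TPM in mutants. The log2 fold change of −0.67 ± 0.12 corresponded to a level 37.0% lower, but with an adjusted p of 0.110 it was not called (edgeR; 0.000333 to 0.365 over 15 alternatives, past the threshold with DESeq2 and when the whole table was fitted at once). At E15.5 Hotairm1 was at −0.01 ± 0.14, and the difference between the lung stages was 0.66 ± 0.17 (adjusted p = 0.540). In the remaining contexts its values lay between −0.24 in diaphragm, iBAT and somites at E12.5 and −0.04 in somites at E10.5.

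**Figure D3:**
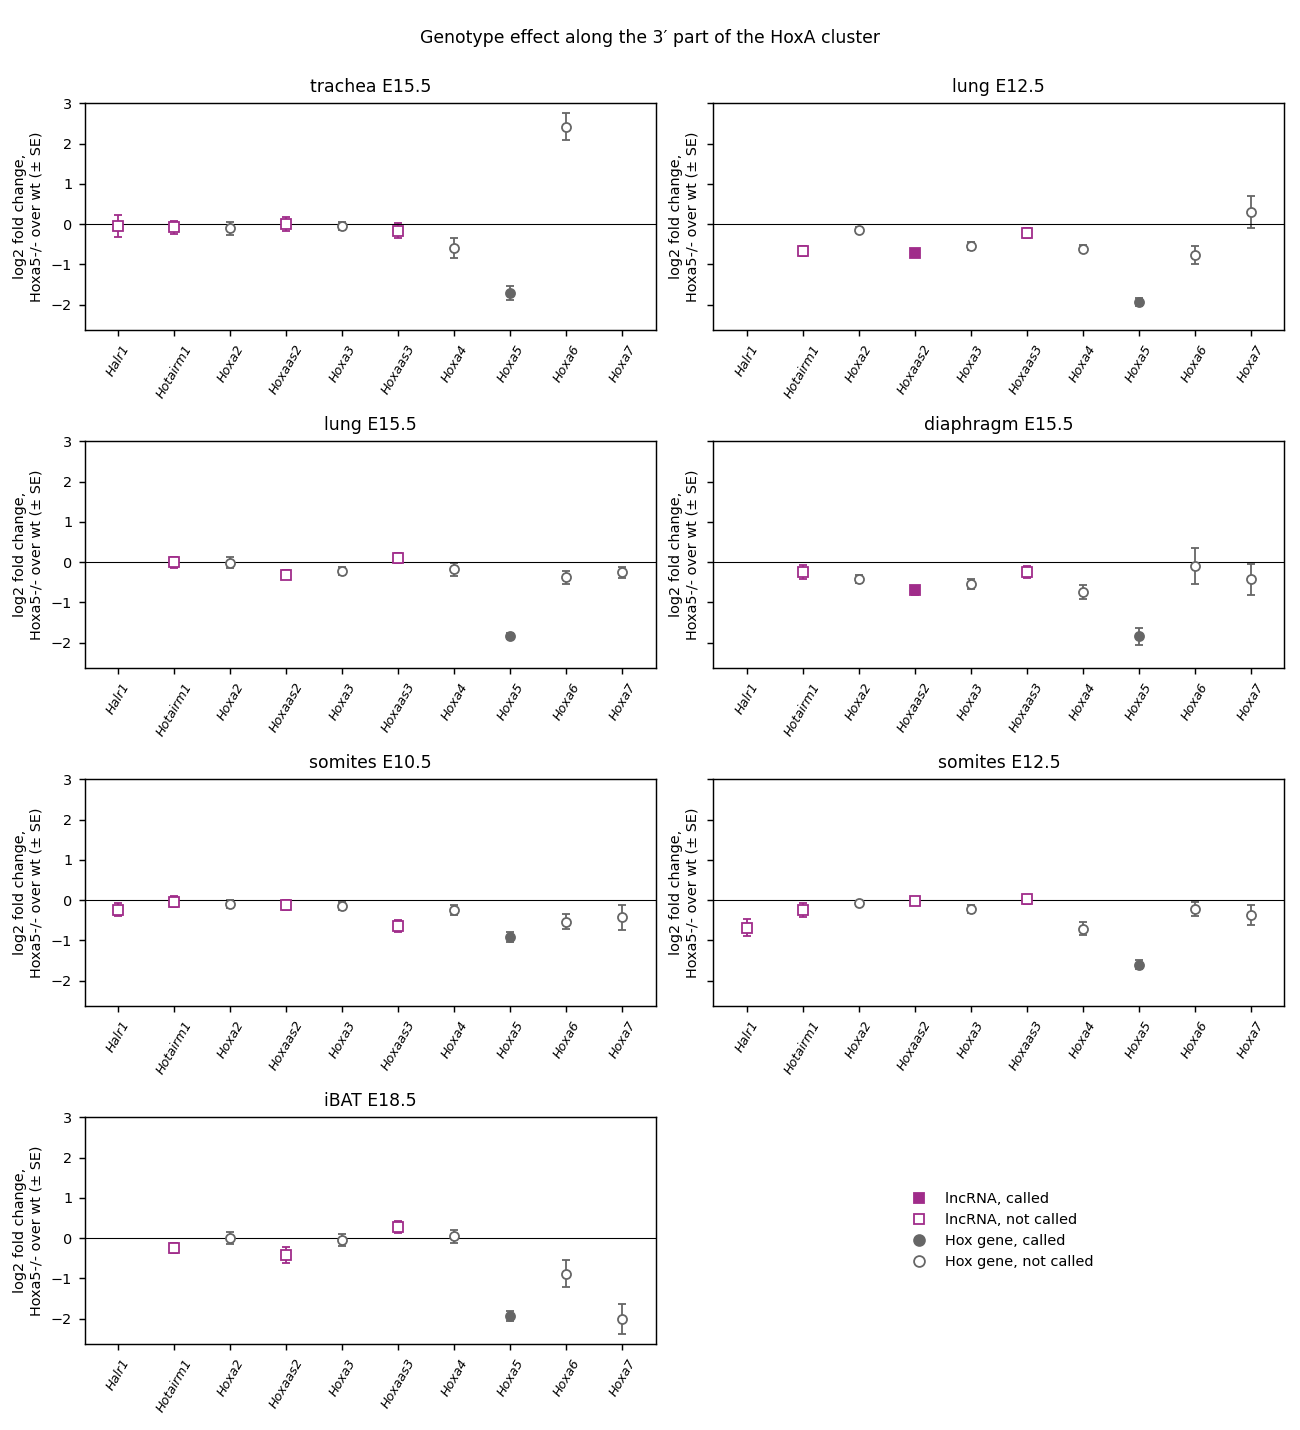
The log2 fold change of Hoxa5-/- against wt with its standard error is plotted along the HoxA cluster from Halr1 to Hoxa7, for the genes reported here, in each context, with squares for lncRNAs, circles for Hox genes and filled symbols where called. Hoxa5 was called lower in every context and Hoxaas2 in lung at E12.5 (−0.72) and diaphragm (−0.70).

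Hoxaas3, whose intron spans the targeted gene, was not called in any context. In somites at E10.5 it held 24.2, 19.6, 27.1 and 26.9 TPM in wt and 20.3, 15.2 and 13.04 TPM in mutants. The highest mutant library lay above the lowest wt library, and the log2 fold change was −0.65 ± 0.15 (adjusted p = 0.391, edgeR; 0.00446 to 0.751 over 14 alternatives, under 0.05 with DESeq2, with no filter on low values and without wt replicate 3). At E12.5 the value was 0.02 ± 0.11, and the difference between somite stages was 0.67 ± 0.19 (adjusted p = 0.327). In the other 5 contexts it lay between −0.25 in diaphragm and 0.26 in iBAT.

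Halr1, outside the row of HoxA genes, and Haglr, between Hoxd3 and Hoxd1, had separated groups in somites without passing the test. In somites at E12.5 Halr1 stood at 2.31, 2.27, 1.80 and 1.96 TPM in wt and 1.62, 1.28, 1.45 and 0.817 TPM in mutants, a log2 fold change of −0.68 ± 0.20 (adjusted p = 0.999, edgeR). Haglr in somites at E10.5 was slightly higher in mutants, at 48.0, 40.9 and 44.4 TPM against 39.8, 36.4, 39.4 and 38.2 TPM in wt, or 0.15 ± 0.09 (adjusted p = 0.434). Its groups did not overlap there, as for 1 of 7 members and 7.37% of all genes. In diaphragm Haglr passed the filter only through the mutants, with 1.34, 1.57, 1.13 and 1.19 TPM against 0.817, 1.05, 0.583 and 0.525 TPM in wt, and its log2 fold change was 0.81 ± 0.24 (adjusted p = 0.198). Lung at E15.5 held 35 counts of Haglr in the 4 mutant libraries and 7 in the 4 wt libraries, below the filter.

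The HoxB lncRNAs were not called in any context. In somites at E12.5 Hoxb3os held 3.04, 3.05, 3.40 and 2.96 TPM in wt and 5.16, 3.87, 3.45 and 3.97 TPM in mutants, without overlap, as for 2 of 7 members and 2.51% of all genes, at a log2 fold change of 0.41 ± 0.14 (adjusted p = 0.999, edgeR). Hoxb5os had 12.46, 12.99, 21.8 and 16.4 TPM in wt and 21.1, 21.6, 18.3 and 23.5 TPM in mutants there, also at 0.41 ± 0.18, but its groups overlapped. In somites at E10.5, where Hoxb5os was most abundant, its mutant libraries at 226, 239 and 217 TPM lay among the wt ones at 221, 229, 265 and 238 (−0.11 ± 0.07). In trachea, lung at E15.5 and iBAT, 0 members had groups that did not overlap, against 3.74%, 2.96% and 0.316% of all genes.

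Genotype effects were also compared between contexts. Of the members tested, 0 of 5 differed between the lung stages (0.0267% of all genes), 0 of 7 between the somite stages (0.0147%), 0 of 7 between trachea and lung (0.00502%), 0 of 6 between diaphragm and lung (0.73%) and 0 of 7 between diaphragm and trachea (0.439%) at E15.5. Members with an unadjusted p under 0.05 were 2, 2, 1, 2 and 1 (edgeR), against 5.25%, 14.3%, 5.04%, 8.46% and 9.07% of all genes, and DESeq2 likewise called 0 in each.

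To see whether lncRNA and neighbour moved together, the log2 ratio of their TPM, each plus 0.1, was compared between genotypes by an exact two-sided permutation test over libraries in the 41 pairs of member and context where both genes reached 1 TPM. The smallest p that 4 against 4 or 4 against 3 libraries allow is 0.0286, and no adjustment was made. The ratio was higher in mutants in 22 and lower in 19, and 3 had a p of 0.0286. Hoxaas3 was higher relative to Hoxa4 in mutants in trachea, from −2.80 ± 0.19 to −2.36 ± 0.21 (SD, n = 4 and 4, exact permutation p = 0.0286), and in somites at E12.5, from −1.34 ± 0.26 to −0.59 ± 0.28 (exact permutation p = 0.0286). In that somite context Hoxa4 was at 17.1, 17.99, 22.5 and 21.8 TPM in wt and 11.9, 16.02, 9.63 and 10.9 TPM in mutants, while Hoxaas3 was at 7.83, 7.997, 8.52 and 6.71 against 8.09, 7.98, 6.80 and 8.65 TPM. Hoxa4 itself was not called in any context with edgeR. The paper, using DESeq2, reported it as significantly lower in lung at E12.5 and in diaphragm. The difference in this ratio was positive in 6 of 7 contexts, from 0.24 to 0.74, and was −0.42 in somites at E10.5 (exact permutation p = 0.171). The third was Hoxb5os to Hoxb5 in somites at E12.5, at −0.49 ± 0.17 in wt and −0.03 ± 0.12 in mutants, while in somites at E10.5 the ratio was 0.50 lower in mutants (exact permutation p = 0.0571). Without 1 library these 3 differences ran from 0.35 to 0.52, from 0.63 to 0.88 and from 0.41 to 0.53, and the exact permutation p rose to 0.0571 on leaving out any of 5, 4 and 1 of the 8 libraries.

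For Hoxaas2 the 2 candidate neighbours gave different values. Against Hoxa3 the differences were −0.17 in lung at E12.5 (exact permutation p = 0.0857) and −0.15 in diaphragm (0.229 by the same test). Against Hoxa2, the gene with the nearest 5′ end, the log2 ratio went from −1.08 ± 0.07 to −1.66 ± 0.10 in lung at E12.5, a difference of −0.58 (exact permutation p = 0.0286), with Hoxa2 at 44.3, 41.9, 42.0 and 44.3 TPM in wt and 33.4, 44.0, 38.8 and 40.1 TPM in mutants. It was −0.31 in lung at E15.5 (exact permutation p = 0.0286) and −0.27 in diaphragm (exact permutation p = 0.0571). These ratios to Hoxa2 were not among the 41 counted above. In lung at E12.5 and diaphragm they rest on the same Hoxaas2 values that had been called, so they are no separate result. The difference between the 2 candidate neighbours was not tested.

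**Figure D4:**
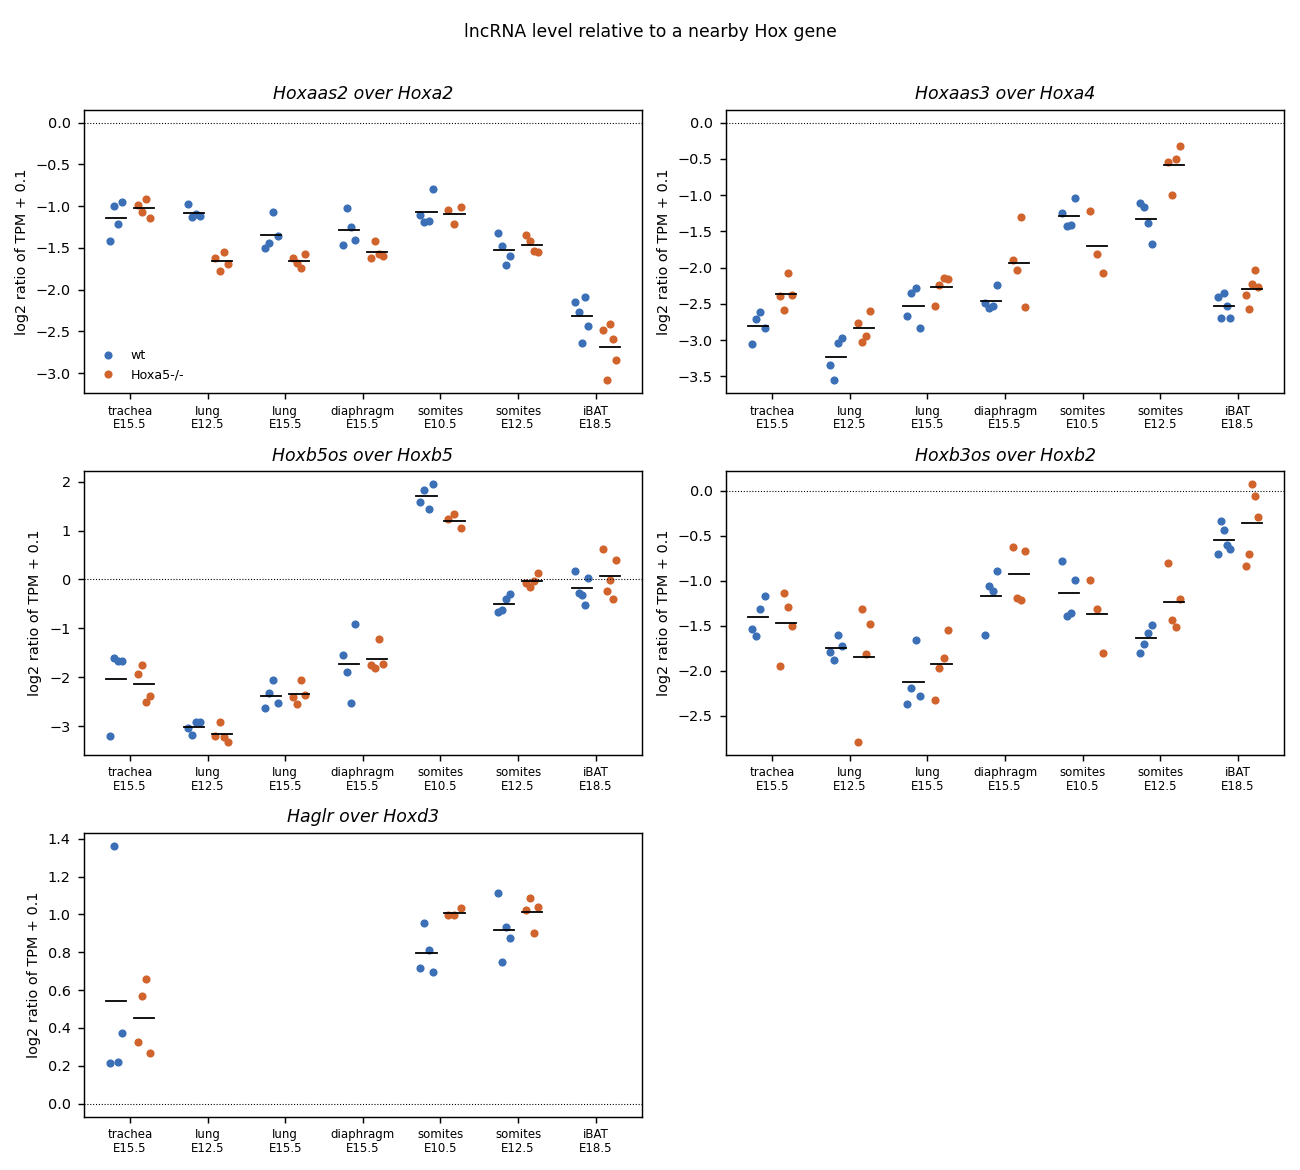
Each panel plots the log2 ratio of TPM, each plus 0.1, of a lncRNA to a Hox gene, 1 point per library (blue wt, orange Hoxa5-/-), in the contexts where both genes reached 1 TPM. Hoxaas2 to Hoxa2 lies lower in mutant lungs at E12.5 (−1.66 against −1.08), Hoxaas3 to Hoxa4 lies higher in mutant somites at E12.5 (−0.59 against −1.34), and Hoxb5os exceeds Hoxb5 in somites at E10.5.

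Across wt contexts the ratios were a description only. Hoxaas2 stood at 0.347 to 0.478 of the TPM of Hoxa2 except in iBAT, at 0.191. Hoxb5os was at 0.125 of the TPM of Hoxb5 in lung at E12.5 and 3.21 times as high in somites at E10.5 (2.71 to 3.86): Hoxb5 itself had 258 TPM in that lung and 74.1 in those somites. Haglr was 1.73 times Hoxd3 in somites at E10.5 and 1.90 times at E12.5, while its ratio to Hoxd1 went from 2.71 to 0.933. The share of the HoxA members was taken in the summed TPM of these members and the protein-coding HoxA genes without Hoxa5. It was 16.5% (lung at E15.5) to 31.04% (iBAT) in wt, and 17.3% to 30.7% in Hoxa5-/- embryos. Other noncoding genes of the cluster were in neither sum, among them Gm15050 with a mean of 96.1 TPM in wt somites at E10.5.

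The pattern of each member over the 14 group means was compared with that of 23483 genes by Pearson's r of log2(TPM + 1), as a description, since the groups share tissues and sequencing sets. The gene most like Hoxaas2 was Hoxa2 (r = 0.986), followed by Fam131b (0.981) and Gal3st3 (0.981), with Hoxa3 at 0.887 (rank 1044). The gene most like Haglr was Hoxd3 (0.995), before Gm44758 (0.985) and Gm15524 (0.984), with Hoxd1 at rank 34 (0.968). For Hoxb3os it was Hoxb4 (0.977), then Dach2 and Gon7, with Hoxb2 at rank 81 (0.919). With Spearman's rank correlation, 1 in place of 3 members had its neighbour among the closest 1% of genes. By that measure Hoxa2 was at rank 8 for Hoxaas2, Hoxd3 at rank 18 for Haglr and Hoxb4 at rank 43 for Hoxb3os. With Pearson's r on the 7 wt means alone these ranks were 3, 1 and 5. The other members had no Hox gene among the 3 closest by Pearson's r over the 14 means. For Hoxb5os these were Hmgb3 (0.986), Faim and Ccdc124, with Hoxb5 at rank 2018 (0.750) and Hoxb8 at rank 22 (0.955). For Hotairm1 they were Gm56053 (0.945), Aacs and Ndufa11b. For Hoxaas3 they were Khdrbs3 (0.966), Gm42798 and Gm15946, with Hoxa4 at rank 2823. For Halr1 they were Fam78b (0.951), Pde1b and Celsr3. Between members, r ran from 0.378 (Hotairm1 and Hoxaas2) to 0.906 (Hoxb3os and Hoxb5os).

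The clusters with 50 kb on either side hold 19 other noncoding genes, of which 13 reached a mean of 1 TPM in a group of libraries. Between genotypes 0 of the 4 to 11 tested per context were called by edgeR, with an unadjusted p under 0.05 for 0 in trachea, 4 in lung at E12.5, 1 in lung at E15.5, 3 in diaphragm, 2 in somites at E10.5, 1 in somites at E12.5 and 0 in iBAT, shares of all genes being 8.01% in lung at E12.5, 13% in diaphragm and as given above elsewhere. DESeq2 called 1, 5730596B20Rik in diaphragm (−0.63, adjusted p = 0.00662, against 0.122 with edgeR). Between wt stages, 6 of 8 tested fell and 1 rose in lung, and 11 of 12 fell and 1 rose in somites. By the mean of their highest group, in wt somites at E10.5, Gm15050 reached 96.1 TPM, Gm11536 84.1 TPM, 5730596B20Rik, which lies within the Hoxaas3 record, 30.3 TPM, 5730585A16Rik 13.8 TPM and Gm29430 6.51 TPM. Highest in Hoxa5-/- somites at E10.5 were Hoxd3os1 (19.3 TPM), Gm14426 (13.3 TPM) and Gm14424 (10.3 TPM), and Evx1os was highest in Hoxa5-/- lung at E12.5 (3.90 TPM). Gm28309, Gm28793, Gm28308 and Gm53 were the others that reached 1 TPM.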

How the data were processed

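Bulk RNA-seq of mouse embryonic tissue was used as processed by the authors. They trimmed reads with Trim Galore 0.6.5, aligned them to GRCm39 with STAR 2.7.9a and counted them with featureCounts 2.0.3 (versions from the submitters' processing notes), against a GENCODE annotation with manually curated Hox genes. The deposited values were raw counts per gene, used for all tests, and TPM computed by the authors from counts and gene lengths, used for levels and ratios. Counting without strand drops reads in exons shared between genes, which lowers overlapping lncRNAs.

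The members, the gene lists and the tests were chosen with earlier results of these data known. Names in the text follow a rule: the members, their neighbouring Hox genes by position, Hoxa5, Hox genes called between genotypes, noncoding genes within the clusters extended by 50 kb that reached 1 TPM, and the 3 genes most like each member. Samples were grouped by their labels. Genes with a mean of at least 1 TPM in either group were tested with edgeR 4.0.16 (TMM normalization, quasi-likelihood test, Benjamini-Hochberg adjustment over all genes tested) in R 4.3.3, and called at an adjusted p under 0.05 and a fold of at least 1.5, or at an adjusted p under 0.05 for differences between effects. The fits were tested on simulated data. Ratios to a Hox gene were compared by exact two-sided permutation tests (numpy 2.4.6), with 0.1 TPM added. Alternatives were DESeq2 1.42.0, its size factors, a mean count of at least 10, no filter, no fold minimum, 1 fit per table, the replicate number as a block, other pseudocounts, neighbours and scales, and leaving out each library. Counting limits for 0 counts used 3 counts. No columns were left out as belonging to other samples. The values of 1 neighbouring gene are not reported here, though counts over the Hox genes and over the ratios include it.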

Additional observations from a re-analysis of the deposited data

Results flagged for a closer look

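Within groups of 4 or 5 libraries, the highest or lowest value was tested against the others (Dixon's test), and 5 of 75 groups were flagged, where chance alone flags about 1 in 20. The values, in TPM, were the lowest wt library of trachea for Hoxaas3 (5.33, replicate 3) and for Halr1 (0.829, the same library), the highest Hoxa5-/- library of lung at E12.5 for Hoxb5os (36.4, replicate 2), the lowest wt library of lung at E15.5 for Hoxb5os (17.5, replicate 3) and the highest Hoxa5-/- library of trachea for Haglr (2.61, replicate 2).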

How the results depend on the processing

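Counts of members called mostly stayed within 1.5 times the reported ones: 370 of 391 recomputed counts and ratios did. In lung at E12.5 the count of 1 became 2 with DESeq2, 2 when the whole table was fitted at once, 0 with the replicate block, and 0 to 1 on leaving out 1 library (0 without Hoxa5-/- replicate 2 or 4). In diaphragm it stayed 1 with DESeq2 and with the block, and on leaving out 1 library it was 0 to 1 (1 in these fits only without wt replicate 3). In somites at E10.5 the count of 0 became 1 with DESeq2 and 1 with no filter, both for Hoxaas3, and was 0 to 1 on leaving out 1 library (1 without wt replicate 3), and the somite difference between stages was also 0 to 1 (1 without wt replicate 3 of E10.5). Diaphragm against lung in wt, with 1 member called, gave 2 with a mean count of at least 10, 3 with no filter, 2 with no fold minimum and 1 to 2 without 1 library. The number of members whose neighbour was among the closest 1% of genes went from 3 to 1 with Spearman's correlation, the 3 ratios at p under 0.05 ranged from 2 to 4, and the 41 pairs at 1 TPM from 41 to 42, without 1 library. The causes were not tested.

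Of the values of single members, 46 of 1979 changed sign, all of them uncalled values near 0: Hotairm1 in lung at E15.5 became 0.0019 with DESeq2 size factors, 0.0028 with a mean count of at least 10 and 0.0035 with no filter. Without 1 library the ranges (log2) of the genotype effects that changed sign were −0.16 to 0.49 for Haglr, −0.25 to 0.061 for Halr1 and −0.12 to 0.10 for Hoxaas2 in trachea, −0.045 to 0.063 for Hotairm1 in lung at E15.5, −0.13 to 0.086 for Hoxb3os in lung at E12.5, −0.098 to 0.058 for Hotairm1 and −0.076 to 0.13 for Hoxb3os in somites at E10.5, and −0.064 to 0.056 for Hoxaas2 and −0.036 to 0.083 for Hoxaas3 in somites at E12.5. Differences between effects gave −0.48 to 0.035 for Halr1 and −0.10 to 0.14 for Hoxb3os (trachea and lung) and −0.18 to 0.051 for Hoxaas3 (diaphragm and trachea), and wt differences −0.096 to 0.097 for Hotairm1 (diaphragm and lung) and −0.054 to 0.22 for Hoxb3os (trachea and lung). Of the calls, Hoxaas3 in wt diaphragm against trachea was lost without diaphragm replicate 3 (−0.56), and Hotairm1 in that comparison was lost with DESeq2, its size factors, no filter, a fit of the whole table, the block and on leaving out any of 5 libraries.

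Replicate numbers are shared between genotypes, but libraries of the same number deviated together at correlations of −0.167 to 0.470 over 28 pairs, and in no context were all pairs above 0.1. In iBAT the sample names of same-numbered libraries also begin with a shared number, whose meaning is not given in the sources used here and which replicates 4 and 5 have in common. The 5 pairs correlated there at 0.0727 to 0.189, 4 of them above 0.1, and with that number as a block 0 members were called in iBAT, as without it. In the other contexts the libraries share only a number. With the replicate block, Hoxaas2 in lung at E12.5 had an adjusted p of 0.153 and in diaphragm of 0.0175, and Hoxaas2 in trachea (0.0036) and Hotairm1 in somites at E10.5 (0.017) changed sign. The iBAT block, the neighbour by counted exons and the leave-one-out of levels were chosen after seeing the data.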
